A study of Homo sapiens with 9 samples.

Results

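The genes of the SR proteins, the hnRNPs and the CLK kinases were examined in Hep3B, a human liver cancer cell line, after 24 hours in 3 conditions with 3 replicate cultures each. The controls received the vehicle DMSO at 20% O2 or at 1% O2, and the third group received 32-134D, a small molecule made to inhibit the hypoxia-inducible factors HIF-1 and HIF-2, at 1% O2. The labels state no dose, and no library of 32-134D at 20% O2 was analysed, so the effect of the compound without hypoxia is not known from these data. All 9 libraries came from 1 cell line. Members were chosen by name: every gene whose symbol is SRSF followed by a number, begins with HNRNP or is CLK1 to CLK4, without the 137 symbols that end as pseudogenes or antisense RNAs. This gave 42 of the 60683 listed genes, namely 12 SRSF, 26 HNRNP and 4 CLK genes. Of these, 38 had at least 10 reads over the 9 libraries and were tested (12 SRSF, 22 HNRNP and 4 CLK). The 4 others, HNRNPCL1 to HNRNPCL4, had at most 2 reads in any library and were not tested.

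SR proteins bind exons through RNA recognition motifs and recruit the spliceosome through a tail rich in arginine and serine, and they mostly favour exon inclusion. CLK kinases phosphorylate that tail in the nucleus, which sets where SR proteins reside and how active they are. hnRNPs coat nascent transcripts, and many of them oppose exon inclusion. Transcripts of many SR and hnRNP genes carry poison exons that lead to nonsense-mediated decay, and CLK1 and CLK4 transcripts are known to be kept in part in the nucleus with introns retained. Reads were counted per gene here, so productive transcripts cannot be told apart from transcripts with a poison exon or a retained intron.

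The libraries held 6013980 to 40549699 counted reads, and the members took 1.03% to 1.20% of them. Levels are given as CPM, counts scaled to library size by the TMM method, in the order of replicates 1, 2 and 3. Differences are log2 fold changes with their standard error (SE) from an edgeR quasi-likelihood fit across 22672 genes, and FDR is the Benjamini-Hochberg adjusted p of that fit over all of them. A gene was called when its FDR was below 0.05 and its fold change above 1.5, which is 0.585 on the log2 scale. Replicate 2 of vehicle at 20% O2 was the smallest library, and replicate 3 of 32-134D differed from its replicates more than any other library did, at 36.2 and 40.5 chi-square units per degree of freedom against 1.64 to 13.3 for the other pairs. All 10 hepatocyte markers examined, including ALB, AFP and HNF4A, were detected in every library. Unlike the other levels, those of all markers are CPM of the total counts, without TMM scaling. The 10 hepatocyte markers summed to 19590 to 21020 CPM in vehicle at 20% O2, 12540 to 15190 CPM in vehicle at 1% O2 and 12300 to 18760 CPM with 32-134D. Marker lists of immune cells, endothelium and fibroblasts summed to at most 35.4, 1.33 and 39.3 CPM. The highest single genes were LYZ (up to 31.3 CPM) on the immune list and PDGFRB (up to 30.7 CPM) on the fibroblast list, whereas CD3E, VWF and KDR were at 0 in every library. These sums were lowest in vehicle at 1% O2 (7.84 to 9.89, 0.0849 to 0.343 and 12 to 13.3 CPM). The part of these marker shifts in the results was not tested, and a level from a whole culture cannot tell fewer cells from less RNA per cell.

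All 4 CLK genes rose at 1% O2, and CLK3, CLK4 and CLK1 moved furthest of all 38 members. Sequence upstream of their RefSeq starts is shown because HIF, the factor that 32-134D is meant to inhibit, binds DNA at a core of ACGTG or GCGTG. Both words were searched on both strands in the 250 bases before each gene start in the RefSeq table (GRCh38.p14), where 39 of the 42 members had an entry. Capitals mark the matches, and CACGTG, which reads the same on both strands, counts as 2 matches. Bases inside an exon of any GENCODE version 29 transcript are left out, which removed 86 bases of CLK1, 12 of CLK2 and 64 of CLK4. The stretches lie on the minus strand at chr2:200864745-200864908 for CLK1, chr1:155273517-155273754 for CLK2 and chr5:178627115-178627300 for CLK4. The RefSeq starts are not the outermost starts of the GENCODE genes, whose 5′ ends lie 86 bases further upstream for CLK1, 4987 for CLK2, 9872 for CLK3 and 3565 for CLK4. The windows of CLK2, CLK3 and CLK4 are therefore inside the annotated genes, as are those of 11 of the 39 members in all, and the start in use in these cells was not measured.
CLK1: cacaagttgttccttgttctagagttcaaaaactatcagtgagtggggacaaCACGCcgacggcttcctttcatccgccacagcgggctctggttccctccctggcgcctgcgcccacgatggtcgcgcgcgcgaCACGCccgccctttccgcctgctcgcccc
CLK2: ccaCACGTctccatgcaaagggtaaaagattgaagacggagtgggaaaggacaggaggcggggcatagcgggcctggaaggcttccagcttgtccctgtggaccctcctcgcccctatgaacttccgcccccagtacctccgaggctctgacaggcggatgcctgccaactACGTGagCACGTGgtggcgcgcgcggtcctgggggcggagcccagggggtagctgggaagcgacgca
CLK4: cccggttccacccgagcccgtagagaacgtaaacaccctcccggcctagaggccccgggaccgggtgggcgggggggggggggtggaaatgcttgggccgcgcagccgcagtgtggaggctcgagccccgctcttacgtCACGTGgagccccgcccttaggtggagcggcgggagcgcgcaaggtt

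The whole windows held 2 matches in CLK1, 4 in CLK2, 3 in CLK4 and 1 in CLK3, whose single match lay in annotated exon sequence. CLK2 had the most matches of the 4 genes, with its CACGTG counted as 2, and a relation of matches to the response was not tested. A match was found in 31 of the 39 members with an entry (79.5%), against 43.2% of the 35116 windows in the table. Both words hold a CG, and the windows of the members had a median GC content of 64.8% against 58.0% over the table, whose part in this share was not tested. Split by the response at 1% O2, a match was found in 6 of the 9 members called higher, 4 of 6 called lower and 19 of 21 not called. SRSF12, HNRNPL and HNRNPLL rose and had no match in this window, and SRSF5 and HNRNPA2B1, which fell, had none either. These matches describe the letters only.

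CLK3 (ENSG00000179335, chromosome 15, 74598500 to 74645414) is one of 4 closely related kinases that phosphorylate serines, threonines and tyrosines. Its levels were 41.1, 39.6 and 38.3 CPM in vehicle at 20% O2, 165, 201 and 194 CPM in vehicle at 1% O2 and 68.9, 70.3 and 66.8 CPM with 32-134D at 1% O2. The 3 groups did not overlap. Relative to vehicle at 20% O2 the log2 fold change at 1% O2 was 2.24 (SE 0.09, FDR 4.84e-11), a rise of 4.71-fold, and 32-134D lowered CLK3 by 2.71-fold against vehicle at 1% O2, a log2 fold change of -1.44 (SE 0.08, FDR 6.28e-09). CLK4 (ENSG00000113240, chromosome 5, 178602664 to 178630615), the least abundant of the kinases, had 7.96, 8.32 and 8.76 CPM at 20% O2, 28.6, 32.6 and 33.4 CPM at 1% O2 and 13.5, 14.5 and 11.2 CPM with the compound. Again no library of one group reached the range of another. The log2 fold changes of CLK4 were 1.91 (SE 0.12, FDR 6.7e-09) at 1% O2 and -1.27 (SE 0.11, FDR 3.8e-07) with 32-134D.

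CLK1 (ENSG00000013441, chromosome 2, 200853009 to 200864744), the best studied of these kinases, had 46.7, 38.5 and 42.7 CPM in vehicle at 20% O2, 136, 158 and 150.4 CPM in vehicle at 1% O2 and 68.4, 70.3 and 69.5 CPM with 32-134D. It rose by 1.79 (SE 0.08, FDR 3.69e-10) on the log2 scale at 1% O2 and changed by -1.09 (SE 0.08, FDR 7.84e-08) with the compound, and its 3 groups lay apart. CLK2 (ENSG00000176444, chromosome 1, 155262868 to 155278491) had 58.8, 58.1 and 58.3 CPM at 20% O2, 87.7, 92.7 and 93.9 CPM at 1% O2 and 63.1, 62.3 and 58.2 CPM with 32-134D. For CLK2 the 32-134D libraries lay across those at 20% O2. The rise of CLK2 at 1% O2 was 0.65 (SE 0.07, FDR 1.66e-06), and the call ended when libraries were scaled by their total counts, where the log2 fold change was 0.43. It also ended with total counts without mitochondrial genes (0.44), a minimum of 10 counts in every library (0.54) and thinning to the smallest library (0.53). With 32-134D the difference of CLK2 was -0.58 (SE 0.07, FDR 6.83e-06), which is just under the fold threshold, so CLK2 was not called there. Of the exon bases of CLK3, 6.65% lie on the opposite strand from another gene, and CLK1 and CLK2 have no such overlap.

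**Figure D1:**
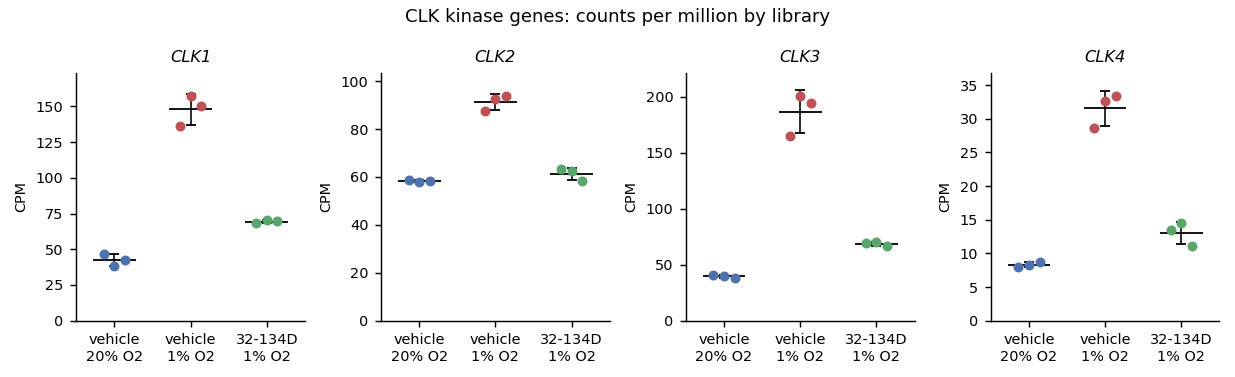
Level of CLK1, CLK2, CLK3 and CLK4 in CPM (vertical axes from 0) in the 3 groups, with 1 point per library, a bar at the mean and whiskers of 1 SD (n = 3). Each gene is highest in vehicle at 1% O2, where CLK3 sits between 165 and 201 CPM against 38.3 to 41.1 CPM at 20% O2 and 66.8 to 70.3 CPM with 32-134D.

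Expressed per kilobase of annotated exon (FPKM from the scaled counts, mean ± SD, n = 3), the kinases stood in the order CLK2, CLK1, CLK3 and CLK4 in vehicle at 20% O2, at 15.9 ± 0.0975, 8.24 ± 0.794, 1.94 ± 0.0685 and 1.05 ± 0.0505. At 1% O2 CLK1 (28.6 ± 2.11) and CLK2 (24.9 ± 0.900) were the highest, ahead of CLK3 (9.13 ± 0.943) and CLK4 (3.98 ± 0.325). The annotated exons of CLK3 sum to 20443 bases over all its transcripts, against 3670 in CLK2, so its level per kilobase is low by construction. A ratio of reads within a library does not depend on the scaling between libraries. There were 0.656 to 0.699 CLK3 reads for each CLK2 read at 20% O2, 1.88 to 2.17 at 1% O2 and 1.09 to 1.15 with 32-134D. The share of CLK reads that came from CLK2 went from 38.1% to 40.2% of them at 20% O2 to 19.2% to 21.0% at 1% O2, and it was 28.3% to 29.5% with 32-134D. The kinase transcripts therefore did not change in equal measure.

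SR protein genes moved in opposite directions at 1% O2: SRSF5, SRSF2 and SRSF7 fell, and SRSF12 rose. Of the 12 tested, 1 was called higher and 3 lower, against 19.5% and 20.3% of all genes tested. An FDR below 0.05 was reached by 10 of the 12 (4 higher and 6 lower), against 53.5% of all genes. SRSF5 (ENSG00000100650, chromosome 14, 69726900 to 69772005), known as SRp40, had 127, 118 and 126 CPM in vehicle at 20% O2, 62.6, 54.5 and 54.6 CPM in vehicle at 1% O2 and 107, 102 and 112 CPM with 32-134D. Every library at 1% O2 with vehicle was below every other library, and the 32-134D libraries lay just under those at 20% O2. The log2 fold change was -1.11 (SE 0.08, FDR 1.73e-08) at 1% O2 and 0.90 (SE 0.08, FDR 3.15e-07) with 32-134D, or 1.86-fold higher than in vehicle at 1% O2. SRSF2 (ENSG00000161547, chromosome 17, 76734115 to 76737374), the nuclear speckle protein SC35, showed 382, 362 and 357 CPM at 20% O2, 194, 204 and 204 CPM at 1% O2 and 313, 308 and 290.1 CPM with the compound. It fell by 0.87 on the log2 scale (SE 0.07, FDR 3.97e-08) and rose with 32-134D by 0.60 (SE 0.07, FDR 3.31e-06), with no overlap between groups. The strand setting of the counting is not given in the sources used here, and 36.7% of the exon bases of SRSF2 lie opposite exons of MFSD11, so reads of that gene may be included.

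SRSF7 (ENSG00000115875, chromosome 2, 38743599 to 38751494), also called 9G8 and active in mRNA export as well as splicing, had 209, 183 and 181 CPM at 20% O2, 124, 120.0 and 128 CPM at 1% O2 and 173, 157 and 161 CPM with 32-134D. Its decrease at 1% O2 was called at -0.63 (SE 0.08, FDR 5.04e-06), whereas the difference with 32-134D, 0.40 (SE 0.07, FDR 0.000401), was under the fold threshold. SRSF12 (ENSG00000154548, chromosome 6, 89095959 to 89118081), an SR-like protein that can antagonise other SR proteins, was the only SRSF gene called higher at 1% O2. It had 13.3, 14.3 and 11.5 CPM at 20% O2, 26.5, 26.4 and 28.1 CPM at 1% O2 and 16.2, 15.4 and 15 CPM with the compound. The 3 groups were again apart, with log2 fold changes of 1.08 (SE 0.10, FDR 5.04e-07) at 1% O2 and -0.80 (SE 0.10, FDR 9.32e-06) with 32-134D.

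The other 8 SRSF genes were not called in any comparison. SRSF10 (log2 fold change -0.42), SRSF6 (-0.38) and SRSF1 (-0.38) were lower at 1% O2 with an FDR below 0.05 from edgeR but under the fold threshold, and SRSF11 (0.49), SRSF9 (0.39) and SRSF8 (0.30) were higher in the same sense. When libraries were scaled by total counts, SRSF10, SRSF6 and SRSF1 passed the fold threshold at 1% O2, with -0.63, -0.60 and -0.59, and so did SRSF1 (0.64) and SRSF7 (0.59) with 32-134D. Under that scaling SRSF9 (0.17, FDR 0.0716) and SRSF8 (0.09, FDR 0.534) did not pass the FDR threshold at 1% O2 in edgeR. In DESeq2 the FDR of SRSF8 was 0.0745. SRSF3 and SRSF4 did not pass the FDR threshold, with log2 fold changes at 1% O2 of -0.06 (95% interval -0.23 to 0.11, FDR 0.542) and -0.06 (95% interval -0.20 to 0.08, FDR 0.49) from edgeR. Scaled by total counts they were lower at 1% O2, at -0.28 (FDR 0.00872) and -0.27 (FDR 0.00298), under the fold threshold. SRSF1 shares 56.6% of its exon bases with the annotated gene AC015813.2 on its own strand, SRSF9 lies opposite GATC over 46.2% of its exon bases, and SRSF8 is a near copy of SRSF2, so the counts of these 3 genes are uncertain. Per kilobase, SRSF2 was the highest SRSF gene at 20% O2 (122 ± 4.40 FPKM, SD, n = 3) and SRSF12 the lowest (2.87 ± 0.316). At 1% O2 SRSF9 (83.3 ± 2.93 FPKM) stood above SRSF2 (66.4 ± 1.95), and with 32-134D SRSF2 (101 ± 3.96) was again above SRSF9 (63.5 ± 2.42). There were 0.486 to 0.545 SRSF5 reads for each SRSF9 read at 20% O2, 0.171 to 0.209 at 1% O2 and 0.426 to 0.490 with 32-134D.

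Among the 22 hnRNP genes tested, 4 were called higher at 1% O2 and 4 lower, and 14 were not called. Both counts lie near the shares of all genes tested, 19.5% higher and 20.3% lower. The highest fold change was that of HNRNPLL (ENSG00000143889, chromosome 2, 38561978 to 38603586), a relative of HNRNPL known for splicing of CD45 in lymphocytes. It had 48.4, 41.3 and 43.0 CPM in vehicle at 20% O2, 78.8, 77.3 and 75.6 CPM in vehicle at 1% O2 and 52.8, 55.8 and 55.1 CPM with 32-134D, a rise of 0.80 (SE 0.08, FDR 5.21e-07) on the log2 scale. HNRNPL (ENSG00000104824, chromosome 19, 38836388 to 38852347), which binds CA repeats, had 317, 305 and 309.9 CPM in vehicle at 20% O2, 493, 529.7 and 543 CPM in vehicle at 1% O2 and 332, 338 and 296 CPM with 32-134D. Its rise was 0.75 (SE 0.07, FDR 5.1e-07), and it was the only hnRNP gene called lower with 32-134D, at -0.70 (SE 0.07, FDR 1.83e-06). The calls of HNRNPL ended in both comparisons with scaling by total counts, at 0.53 and -0.51. HNRNPK (ENSG00000165119, chromosome 9, 83968083 to 83980616), a protein with KH domains that binds C-rich RNA, was at 712, 728 and 734 CPM at 20% O2, 1144, 1184 and 1207 CPM at 1% O2 and 849, 854 and 789.9 CPM with 32-134D. HNRNPK rose by 0.70 (SE 0.06, FDR 3.26e-07), a call that likewise ended with scaling by total counts (0.49), and the groups of HNRNPK did not overlap.

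HNRNPDL (ENSG00000152795, chromosome 4, 82422564 to 82430408), a relative of the AU-rich element binding protein HNRNPD, stood at 291, 259.8 and 261 CPM at 20% O2, 396, 409 and 415 CPM at 1% O2 and 289, 283 and 287 CPM with 32-134D. Its increase of 0.59 (SE 0.07, FDR 3.01e-06) was only just past the fold threshold and was called in 2 of the 9 fits that each left out 1 library. DESeq2 and RLE scaling (0.54 in both) ended that call as well, as did scaling by total library size (0.37) and total counts without mitochondrial genes (0.38), a minimum of 10 counts in every library (0.48) and thinning to the smallest library (0.49). HNRNPC, which binds runs of U and packages nascent RNA, was just outside it at 0.57 (SE 0.07, FDR 7.41e-06). With 32-134D, HNRNPLL, HNRNPK, HNRNPDL and HNRNPC had log2 fold changes from -0.51 to -0.50, with an FDR of 5.99e-05 or lower from edgeR, all under the fold threshold.

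HNRNPA2B1 (ENSG00000122566, chromosome 7, 26173057 to 26201529), an abundant hnRNP with roles in RNA transport and microRNA processing, fell most of the hnRNP genes. It had 1401, 1373 and 1415 CPM in vehicle at 20% O2, 799, 783 and 764 CPM in vehicle at 1% O2 and 1267, 1247 and 1149 CPM with 32-134D, so that the vehicle libraries at 1% O2 were far below the rest. The log2 fold changes were -0.84 (SE 0.07, FDR 6.16e-08) at 1% O2 and 0.64 (SE 0.07, FDR 1.71e-06) with 32-134D. HNRNPA3 (ENSG00000170144, chromosome 2, 177212563 to 177223958), of the same A/B subfamily, had 527, 504 and 525 CPM at 20% O2, 306, 329 and 346 CPM at 1% O2 and 481, 473 and 525 CPM with 32-134D. It fell at 1% O2 by 0.67 on the log2 scale (SE 0.07, FDR 1.6e-06) and was called higher with 32-134D at 0.59 (SE 0.07, FDR 8.36e-06), a call that ended at 0.55 without replicate 1 of vehicle at 1% O2 or replicate 3 of 32-134D, and at 0.58 with no filter on low counts.

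HNRNPM (ENSG00000099783, chromosome 19, 8444767 to 8489114), which binds GU-rich RNA, had 689.6, 636 and 647 CPM at 20% O2, 387, 377 and 376 CPM at 1% O2 and 554, 548 and 446 CPM with 32-134D. Replicate 3 of 32-134D was lower than the other 2, and the groups did not overlap. HNRNPM fell at 1% O2, with a log2 fold change of -0.79 (SE 0.08, FDR 1.19e-06), and its difference with 32-134D was 0.44 (SE 0.08, FDR 0.000417), not called. HNRNPH3 (ENSG00000096746, chromosome 10, 68331174 to 68343191), a relative of the G-run binding proteins HNRNPH1 and HNRNPF, had 166, 138 and 156 CPM at 20% O2, 97.9, 93.4 and 99.5 CPM at 1% O2 and 139, 137 and 133 CPM with 32-134D. Its log2 fold changes were -0.66 (SE 0.08, FDR 2.99e-06) at 1% O2, which was called, and 0.49 (SE 0.08, FDR 7.73e-05) with 32-134D, which was not. HNRNPM and HNRNPH3 passed the fold threshold with 32-134D when libraries were scaled by total counts, at 0.63 and 0.68.

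**Figure D2:**
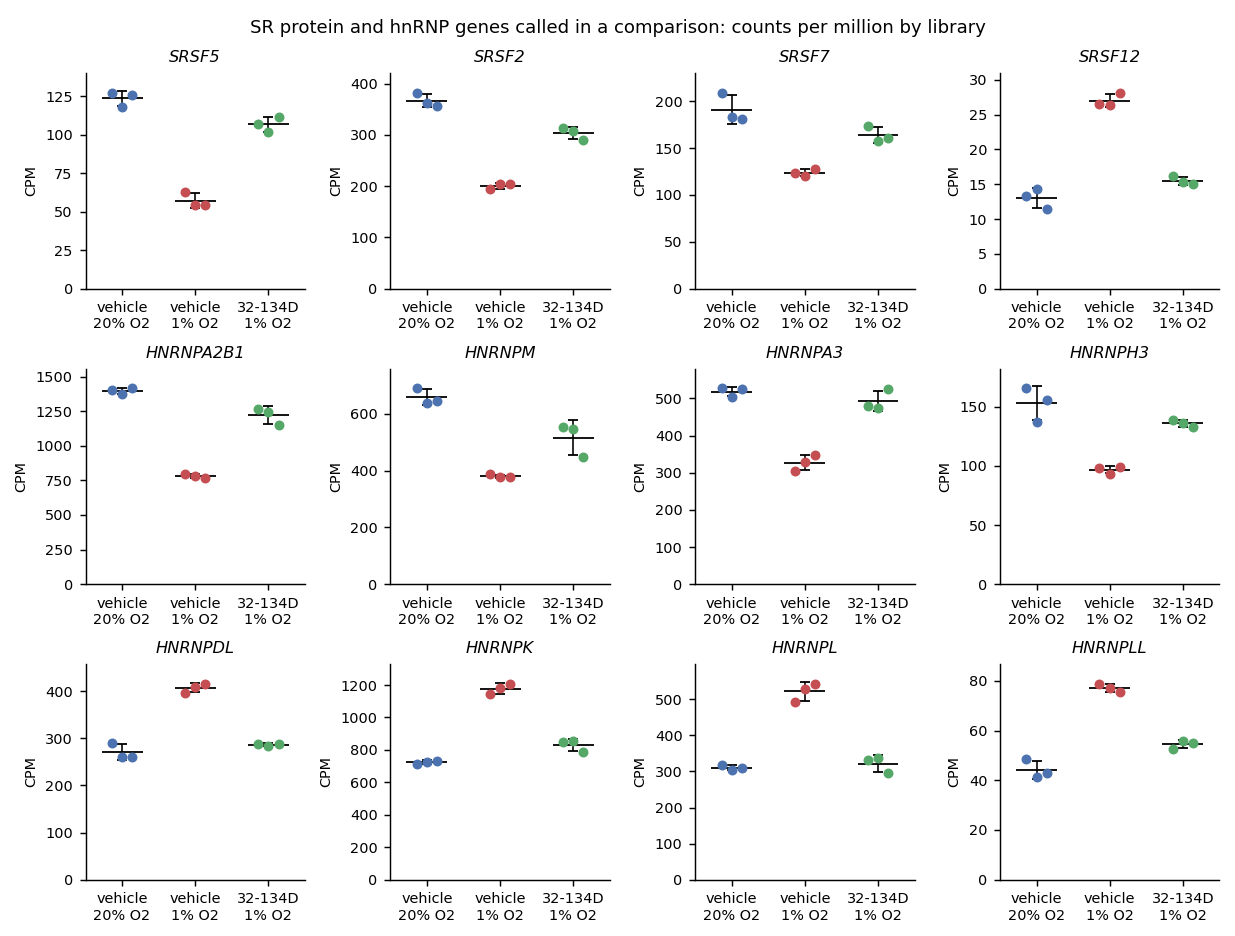
Level in CPM (vertical axes from 0) of the 4 SRSF and 8 HNRNP genes called at 1% O2 or with 32-134D, with 1 point per library, a bar at the mean and whiskers of 1 SD (n = 3). In the panels of SRSF5, SRSF2, SRSF7, HNRNPA2B1, HNRNPM, HNRNPA3 and HNRNPH3 the vehicle libraries at 1% O2 are the lowest, and in those of SRSF12, HNRNPDL, HNRNPK, HNRNPL and HNRNPLL they are the highest.

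Of the 14 hnRNP genes not called at 1% O2, HNRNPC, HNRNPF (0.46), HNRNPH2 (0.45) and HNRNPA1 (0.37) were higher and HNRNPUL2 (-0.33) and HNRNPAB (-0.16) lower with an FDR below 0.05 from edgeR. Scaled by total counts, HNRNPA1 was at 0.15 with an edgeR FDR of 0.0536. The 8 others did not pass the FDR threshold. Of these, HNRNPU, HNRNPUL1, HNRNPD, HNRNPH1, HNRNPR and HNRNPA0 were lower with an FDR below 0.05 when libraries were scaled by total counts, with log2 fold changes from -0.32 (HNRNPD) to -0.16 (HNRNPR), none past the fold threshold. The log2 fold change of HNRNPU, an abundant nuclear scaffold protein, was -0.03 (95% interval -0.17 to 0.11, FDR 0.741), and that of HNRNPR was 0.05 (95% interval -0.08 to 0.18, FDR 0.509), both from edgeR. HNRNPUL2-BSCL2, a readthrough of HNRNPUL2 into its neighbour, had 2 to 24 reads per library and an interval of -0.54 to 1.25, which reaches past the fold threshold for a rise but not for a fall. Reads of HNRNPA1 and HNRNPA1L2 can be split among near-identical copies, HNRNPUL2 shares 44.2% of its exon bases with the readthrough and HNRNPH2 shares 16.3% with another, so these values are uncertain. At 20% O2 the highest hnRNP levels per kilobase were those of HNRNPA2B1 (151 ± 2.32 FPKM, SD, n = 3), HNRNPA1 (146 ± 4.14) and HNRNPK (142 ± 2.17), and neighbours in this order were within the spread of each other. At 1% O2 HNRNPK was first (230.4 ± 6.16), ahead of HNRNPA1 (188 ± 8.42), and HNRNPA2B1 was at 84.4 ± 1.86. HNRNPUL2-BSCL2 was lowest in each group, at 0.115 FPKM or less on average. There were 1.89 to 1.97 HNRNPA2B1 reads for each HNRNPK read at 20% O2, 0.634 to 0.698 at 1% O2 and 1.45 to 1.49 with 32-134D.

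Over the 3 families together, 9 of the 38 members (23.7%) were called higher at 1% O2, against 19.5% of all genes tested, and 7 (18.4%) were called lower, against 20.3%, so that both shares lie near the background. An FDR below 0.05, at any fold change, was reached by 28 members (73.7%), against 53.5% of all genes. The members are deeply read, with a median of 45547 reads over the 9 libraries against 1012 over all genes tested, and the part of depth in that share was not tested. The median log2 fold change was 0.0006 over the members and 0.0010 over all genes, and the median of its absolute size was 0.46 and 0.72. By family the medians were 1.85 for CLK, -0.22 for SRSF and 0.0006 for HNRNP. Scaling by total library size moved the median of all genes by -0.21 and gave 5 members called higher and 10 lower. Of all calls at 1% O2, 34.5% were then of higher genes, against 49.0% with the scaling used here. Under that scaling CLK1, CLK3, CLK4, SRSF12 and HNRNPLL were the members called higher, and the sign of the log2 fold change differed only for HNRNPUL1 and HNRNPR, which were not called under either scaling. The exon length of the members had a Spearman correlation of 0.02 with the log2 fold change at 1% O2 (n = 38 genes of the same libraries), against -0.0089 over 22265 genes, given as descriptions.

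**Figure D3:**
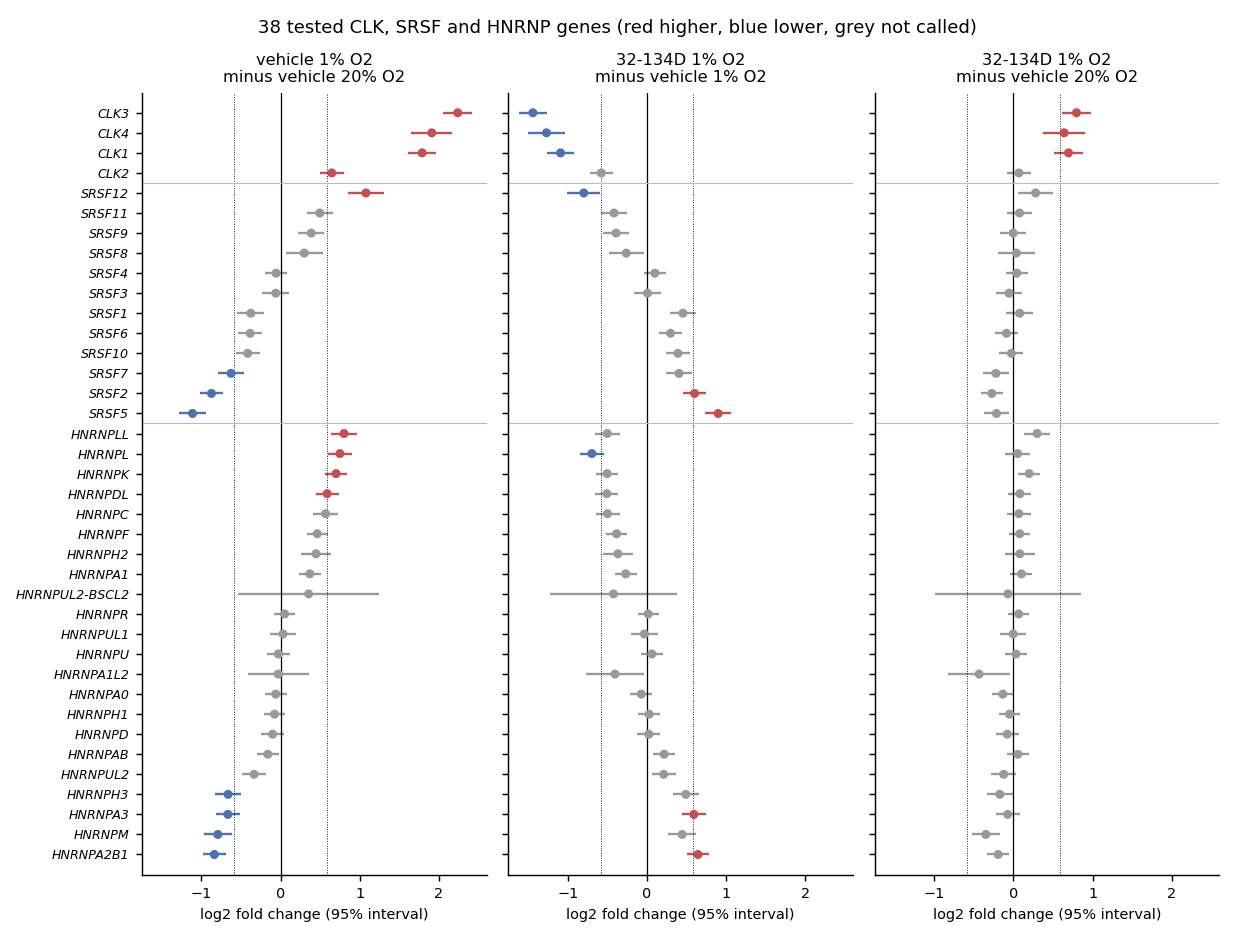
Log2 fold change (horizontal axes) of the 38 tested members in the 3 comparisons, with lines for the 95% interval of the edgeR fit, dotted lines at a fold change of 1.5, and genes ordered within CLK, SRSF and HNRNP by their value at 1% O2. Members called higher (red) number 9, 4 and 3 and members called lower (blue) 7, 5 and 0 from left to right, and the panels share libraries with each other.

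With 32-134D at 1% O2, 4 members were higher and 5 lower than with vehicle at 1% O2. The higher ones were SRSF5, SRSF2, HNRNPA2B1 and HNRNPA3, and the lower ones CLK1, CLK3, CLK4, SRSF12 and HNRNPL. The shares of 10.5% higher and 13.2% lower stood against 16.2% and 13.7% of all genes, and an FDR below 0.05 was found in 27 members (71.1%) against 47.5% of all genes. The median log2 fold change was -0.05 over the members and -0.01 over all genes, with medians of -1.18 for CLK, 0.20 for SRSF and -0.05 for HNRNP. Total library size moved the median of all genes by 0.19, gave 8 members higher and 4 lower, and made 72% of all calls higher, against 54.2%. CLK1, CLK3, CLK4 and SRSF12 were called lower and SRSF5, SRSF2, HNRNPA2B1 and HNRNPA3 higher in that case too. Without replicate 1 of vehicle at 1% O2, 2 members were called higher, SRSF5 and HNRNPA2B1, since SRSF2 was then at 0.58 and HNRNPA3 at 0.55. This comparison and the one at 1% O2 against 20% O2 share the vehicle libraries at 1% O2, so opposite signs in them are not independent of each other. Of the 29 members not called, 19 had a 95% interval within the fold threshold in both directions, and 10 had one that reached past it.

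Set against vehicle at 20% O2, the largest log2 fold changes of the members in cells with 32-134D at 1% O2 were those of 3 kinases. CLK3, CLK1 and CLK4 were called higher, with log2 fold changes of 0.80 (SE 0.08, FDR 2.9e-05), 0.69 (SE 0.08, FDR 9.58e-05) and 0.64 (SE 0.12, FDR 0.00412) from edgeR, and in each the libraries of the groups did not overlap. The call of CLK4 ended at 0.56 without replicate 2 of 32-134D. CLK2 was at 0.07 (95% interval -0.08 to 0.22, FDR 0.612). These 3 members, 7.89% of the 38, were the only ones called in either direction, against 3.52% of all genes, of which 681 were higher and 117 lower. With an FDR below 0.05 at any fold change there were 6 members (15.8%), against 10.3% of all genes, and the 3 besides the kinases were HNRNPLL (0.30), HNRNPM (-0.35) and SRSF2 (-0.27). At an unadjusted p below 0.05 from edgeR, 7 members were lower, and both edgeR and DESeq2 called 0 lower. For 33 of the 35 members not called, the 95% interval stayed within a fold change of 1.5 in both directions, among them SRSF5 at -0.21 (95% interval -0.38 to -0.05, FDR 0.0944), HNRNPA2B1 at -0.19 (95% interval -0.33 to -0.05, FDR 0.0792) and HNRNPL at 0.05 (95% interval -0.10 to 0.21, FDR 0.724) from edgeR. The exceptions were HNRNPA1L2 and HNRNPUL2-BSCL2, which had few reads. The median log2 fold change was 0.03 over the members and -0.0028 over all genes.

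Summed over its 4 genes, the CLK family stood at 149 ± 5.11 CPM (SD, n = 3) in vehicle at 20% O2, 458 ± 35.6 CPM in vehicle at 1% O2 and 212 ± 6.02 CPM with 32-134D. The 12 SRSF genes summed to 2046 ± 122, 1795 ± 5.57 and 1936 ± 36.2 CPM in the same order, and the 22 HNRNP genes to 8886 ± 145, 9072 ± 198 and 8732 ± 152 CPM. The sums of the CLK genes did not overlap between groups, whereas the HNRNP sums of vehicle at 20% O2 (8719 to 8978) lay across the other groups. Within a library, where scaling plays no part, there were 13.5 to 14.1 SRSF reads for each CLK read at 20% O2, 3.70 to 4.32 at 1% O2 and 8.88 to 9.25 with 32-134D. The corresponding ratios of HNRNP to CLK reads were 58.0 to 60.6, 18.9 to 21.2 and 40.5 to 41.6. These ratios are reads per read and not protein, and they carry no test.

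**Figure D4:**
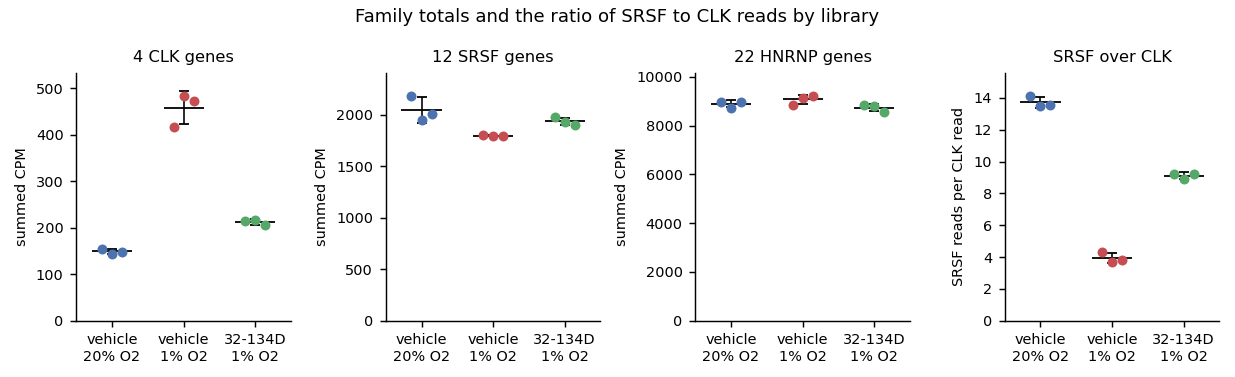
Summed CPM of the CLK, SRSF and HNRNP genes and the number of SRSF reads per CLK read (vertical axes from 0) in each library, with bars at the mean and whiskers of 1 SD (n = 3). The ratio on the right is 13.7 on average in vehicle at 20% O2, 3.94 in vehicle at 1% O2 and 9.12 with 32-134D.

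The other genes of the splicing pathway were taken from 6 lists, 154 tested genes in all, of which 44 (28.6%) were called higher and 14 (9.09%) lower at 1% O2, against 19.5% and 20.3% of all genes. With 32-134D, 11 (7.14%) were higher and 27 (17.5%) lower, against 16.2% and 13.7% of all genes, and the same 4 background shares hold for each of the 6 lists with the scaling used here. With total library size, 3082 of all genes were called higher and 5847 lower at 1% O2, and 4754 higher and 1847 lower with 32-134D. The counts of the lists shifted in the same direction, as given below, so the balance of these shares depends on the scaling. In the list of SR protein kinases, phosphatases and importers, 6 of 18 were called higher at 1% O2 (33.3%) and 0 lower, and with 32-134D 0 were higher and 5 lower (27.8%). PPP1R8, a nuclear inhibitor of protein phosphatase 1, rose from 42.5 ± 1.67 to 103 ± 4.83 CPM (SD, n = 3), which is 1.27 (SE 0.07, FDR 2.07e-09) on the log2 scale from edgeR, and changed by -0.85 (SE 0.07, FDR 2.03e-07) with 32-134D. The kinase DYRK2 (1.05, SE 0.09, FDR 2.36e-07) and the phosphatase catalytic subunit PPP1CB (0.96, SE 0.09, FDR 4.43e-07) rose as well at 1% O2. At an unadjusted p below 0.05 from edgeR, 2 genes of the list were lower at 1% O2 and 3 were higher with 32-134D, and DESeq2 called 0 of either. With total library size the list had 5 higher and 1 lower at 1% O2, and 0 higher and 2 lower with the compound. DESeq2 gave 6 and 0, then 0 and 3, in the same order.

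SR-related coactivators, proteins with arginine and serine repeats outside the SRSF family, were called in both directions, 4 of 29 (13.8%) higher and 3 (10.3%) lower at 1% O2, and 2 higher and 2 lower (6.90% each) with 32-134D, all below the shares of all genes. With total library size the list had 2 higher and 5 lower at 1% O2, where all genes shifted in the same direction, to 3082 higher and 5847 lower. With 32-134D the list then had 4 higher and 2 lower, against 4754 and 1847 of all genes. RSRP1 had the largest rise, from 23.7 ± 2.29 to 98.7 ± 4.06 CPM (SD, n = 3), with a log2 fold change of 2.04 (SE 0.09, FDR 1.73e-10) at 1% O2, -1.27 (SE 0.08, FDR 2.49e-08) with 32-134D and 0.77 (SE 0.09, FDR 5.87e-05) for 32-134D against vehicle at 20% O2, all from edgeR. RSRP1 was the single gene of the 6 lists called in that last comparison, 0.649% of the 154 tested, against 3.52% of all genes. RSRC2 was at 1.61 (SE 0.09, FDR 1.47e-09) and -1.22 (SE 0.09, FDR 4.98e-08) in the first 2 comparisons. SRRM2, a scaffold of nuclear speckles, fell by 0.88 on the log2 scale at 1% O2 and was higher with 32-134D, at 0.77 (SE 0.11, FDR 3.25e-05).

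In the core spliceosome list, 17 of 54 genes were called higher at 1% O2 (31.5%, against the 19.5% of all genes) and 0 lower, with a median log2 fold change of 0.31 over the list. With 32-134D 0 were called higher and 11 lower (20.4%, against 13.7%), with a median of -0.22. SYF2 (1.61, SE 0.10, FDR 4.48e-09), CDC5L (1.27, SE 0.06, FDR 7.47e-10) and BCAS2 (1.25, SE 0.08, FDR 9.22e-09), which belong to or join the Prp19 complex, had the largest rises. With 32-134D SYF2 was at -1.12 (SE 0.09, FDR 2.45e-07), BCAS2 at -0.81 (SE 0.08, FDR 9.56e-07) and PLRG1 at -0.78 (SE 0.07, FDR 4.76e-07). Scaling by total library size left 12 higher and 2 lower at 1% O2, and 1 higher and 3 lower with the compound, and DESeq2 gave 17 and 0, then 0 and 6. Over all genes, those lower with 32-134D numbered 3101 in the main fit, 1847 with total library size and 2425 with DESeq2. The shares of 20.4% and 13.7% therefore hold for the main fit only. At an unadjusted p below 0.05 from edgeR, 6 genes were lower at 1% O2 and 5 were higher with 32-134D.

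Of 15 genes of nonsense-mediated decay and the exon junction complex, 7 (46.7%) were called higher and 2 (13.3%) lower at 1% O2, and 1 (6.67%) higher and 4 (26.7%) lower with 32-134D. With total library size there were 5 higher and 3 lower, then 2 higher and 2 lower. UPF3B (1.27, SE 0.11, FDR 1.92e-07), SMG9 (0.97, SE 0.07, FDR 3.98e-08) and the junction helicase EIF4A3 (0.89, SE 0.08, FDR 1.36e-07) rose, while SMG1, the kinase that phosphorylates UPF1, fell (-1.06, SE 0.13, FDR 6.15e-06) and so did the endonuclease SMG6 (-0.82, SE 0.10, FDR 6.5e-06). With 32-134D SMG1 was higher (1.07, SE 0.13, FDR 8.55e-06). Of 15 hnRNP proteins that go by other symbols, 14 were tested, and 3 were called higher and 3 lower at 1% O2 (21.4% each), and 3 (21.4%) higher and 2 (14.3%) lower with 32-134D. With total library size these were 1 higher and 4 lower, then 4 higher and 1 lower. PTBP1, the polypyrimidine tract binding protein, rose from 702 ± 39.9 to 1541 ± 68.1 CPM (SD, n = 3) at 1% O2, with a log2 fold change of 1.14 (SE 0.07, FDR 4.49e-09), and its paralog PTBP2 was at -0.81 (SE 0.11, FDR 1.9e-05). TAF15 and EWSR1, of the FET family, fell at 1% O2, with -1.57 (SE 0.07, FDR 3.69e-10) and -1.13 (SE 0.06, FDR 2.42e-09), and were higher with 32-134D, with 1.28 (SE 0.07, FDR 7.52e-09) and 0.80 (SE 0.06, FDR 1.78e-07) from edgeR.

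The last list holds 25 other regulators of exon choice, of which 24 were tested, with 7 (29.2%) higher and 6 (25.0%) lower at 1% O2 and 5 (20.8%) higher and 3 (12.5%) lower with 32-134D. With total library size the list had 3 higher and 7 lower at 1% O2, and 7 higher and 1 lower with 32-134D. All genes shifted in the same direction, to 3082 higher and 5847 lower at 1% O2, and 4754 higher and 1847 lower with 32-134D. The 3 that fell furthest at 1% O2 were MSI2 (-2.39, SE 0.09, FDR 4.83e-11), an RNA binding protein of stem cells, MBNL3 (-2.28, SE 0.11, FDR 3.24e-10), a muscleblind protein, and RBM3 (-1.76, SE 0.12, FDR 1.71e-08), a cold-inducible protein. With 32-134D they were higher than with vehicle at 1% O2, at 2.15 (SE 0.09, FDR 4.12e-10), 2.07 (SE 0.11, FDR 2.7e-09) and 1.67 (SE 0.12, FDR 6.58e-08) from edgeR. RBM15 (1.50, SE 0.09, FDR 4.58e-09), which helps to place m6A on RNA, and RBM38 (1.02, SE 0.07, FDR 3.08e-08), a regulator of mRNA stability, rose at 1% O2.

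**Figure D5:**
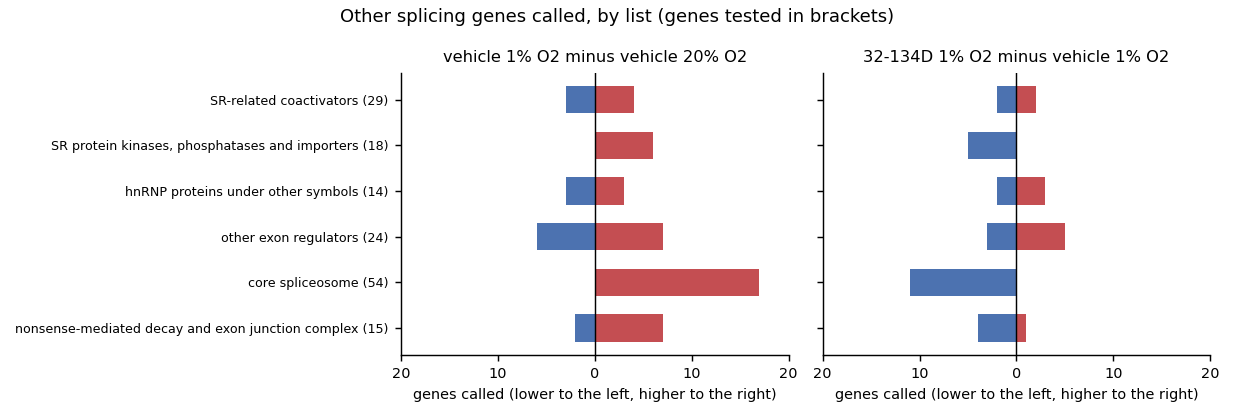
Number of genes called lower (bars to the left) and higher (bars to the right) in each of the 6 lists of other splicing genes, with the number tested in brackets. The core spliceosome bar reaches 17 to the right at 1% O2 and 11 to the left with 32-134D, with 0 on the opposite side in each.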

How the data were processed

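RNA-seq was carried out on 9 cultures of Hep3B cells in 3 groups of 3. The authors deposited whole-number counts of reads per Ensembl gene, without normalization, which they made with FastQC, Bbduk, STAR (Ensembl release 100, GRCh38) and featureCounts. Tool versions and the strand setting are not given in the sources used here. Total counts ran from 6013980 to 40549699 per library, and 3 replicates per group and, for rare transcripts, the smallest library limit the precision. The paper calls the replicates biological, and the p-values measure the spread between these cultures. No pair of replicates agreed within counting error.

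Counts were scaled by TMM and fitted with edgeR 4.0.16 in R 4.3.3 (quasi-likelihood test) in 1 model of the 9 libraries, after keeping the 22672 genes with at least 10 counts in all, of 60683. A gene was called past 1.5-fold with an FDR (Benjamini-Hochberg) below 0.05, thresholds taken from the study, whose own test was DESeq2. CPM are TMM-scaled, FPKM divide them by the union of exons in GENCODE version 29, and positions are from that annotation (GRCh38). Promoter windows are from RefSeq (GRCh38.p14). To check that the 39 windows run 5′ to 3′, the bases after each start were searched in GENCODE transcripts of the same gene, and 31 were found. The others, among them those of HNRNPH2 and HNRNPA1L2, were not found, and they were kept in the shares of windows with a match. The script was tested on simulated data.

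Any member could be named, and values per library are given for the CLK genes and for each SRSF or HNRNP gene called at 1% O2 or with 32-134D. Of the other splicing genes, up to 3 per direction and list with the largest fold change and a mean normalized count of at least 100 are named. The members, lists and tests were chosen with earlier results of these data known. Alternatives were DESeq2 1.42.0, other scalings, filters and fold thresholds, fits of 2 groups, thinning, fits without each library in turn and a replicate block. The replicate numbers of the labels were not used as pairs. The paper's methods and the labels name different culture media.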

Additional observations from a re-analysis of the deposited data

How the results depend on the processing

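Across the alternatives, no member changed the sign of a called log2 fold change, and of the values for single members 1941 gave the same outcome, 62 fell on the other side of 0 with no call, 28 lost a call and 18 gained one. Members called higher at 1% O2 (9) numbered 5 with total library size and with total counts without mitochondrial genes, 16 with no fold change threshold and 4 above a fold change of 2, and members called lower (7) numbered 12 and 1 under these fold thresholds. With 32-134D against vehicle at 1% O2, members higher (4) numbered 8 with each total-count scaling, 12 with no fold threshold and 0 above 2, and members lower (5) numbered 15 and 3 under the fold thresholds. Against vehicle at 20% O2, 0 members were higher above a fold change of 2, and 2 were lower with no fold threshold. These counts are out of 38 members, and those over all 22672 genes at the same settings are given below.

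The median log2 fold change of the members at 1% O2 was -0.0447 with DESeq2, -0.2135 with total library size, -0.2055 without mitochondrial genes, -0.0473 with RLE scaling, 0.0687 with no filter on low counts, -0.1346 with 10 counts in every library and -0.1424 after thinning. With 32-134D it was 0.0053, 0.1348, 0.1310, 0.0050, -0.1766, 0.0602 and 0.0554 in the same order, and 0.0116 in the fit of the 2 groups. Against vehicle at 20% O2 it was 0.0076 with total library size, 0.0118 without mitochondrial genes and 0.0067 after thinning. Some of these medians are on the other side of 0 from the values above, which all lie near 0. The cause was not tested.

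Over all genes, 2824 were higher at 1% O2 with 10 counts in every library, a filter that left fewer genes, and 2449 above a fold change of 2. Higher genes at 1% O2 numbered 3082 with total library size, 3127 without mitochondrial genes and 6317 with no fold threshold. Lower genes there numbered 5814 with no fold threshold and 3286 above 2. Genes higher with 32-134D numbered 4754 with total library size, 4733 without mitochondrial genes, 4973 with no fold threshold and 2451 above 2. With 32-134D, 1847 were lower with total library size, 1871 without mitochondrial genes, 1771 with 10 counts in every library, 2060 after thinning, 5789 with no fold threshold and 1189 above 2. Against vehicle at 20% O2, 1771 were higher with no fold threshold and 283 above 2, and 291 were lower with no filter on low counts, 39 in the fit of the 2 groups, 553 with no fold threshold and 21 above 2.

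Leaving out each library in turn gave 8 to 10 members higher and 7 lower at 1% O2 (median -0.0545 to 0.0473), 2 to 4 higher and 5 to 6 lower with 32-134D (median -0.0850 to 0.0378), and 2 to 3 higher and 0 lower against vehicle at 20% O2 (median 0.0042 to 0.0912). Over all genes the ranges were 4013 to 4527 higher and 3846 to 4816 lower at 1% O2, 3311 to 3912 higher and 2453 to 3144 lower with 32-134D, and 533 to 800 higher and 35 to 198 lower against vehicle at 20% O2. Libraries with the same replicate number did not deviate together (correlations of -0.0322 to 0.0052), so the numbers were not taken as pairs. With the replicate block, 9 members were higher and 7 lower at 1% O2, 4 and 5 with 32-134D and 3 and 0 against vehicle at 20% O2.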
